A study of Homo sapiens with 4 samples.

Results

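Chemokine and cytokine genes that epithelial tumour cells transcribe were followed in HCT116 cells treated with HJJ_3_5. The 10 genes, CXCL1, CXCL2, CXCL3, CXCL8, CXCL16, CCL20, CSF1, LIF, IL18 and IL11, were taken by symbol from a table of 20263 human genes. All 10 had a row and all 10 passed the filter on low counts. HCT116 is a widely used cell line from a human colorectal carcinoma. The cells were cultured for 24 h either with HJJ_3_5, a piperine derivative by the title of the series, or under the label DMSO, the solvent control. Both groups were the same cell line, grown in DMEM with fetal bovine serum and antibiotics, and differed by the treatment alone as far as the labels say. No source used here states at what concentration HJJ_3_5 was applied. There were 2 libraries in each of the 2 groups, numbered 1 and 2, and nothing in the labels says that these came from separate cultures, so the p-values measure the spread between libraries, which may be technical.

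Chemokines are small secreted proteins that draw leukocytes along a gradient. CXCL1, CXCL2, CXCL3 and CXCL8 carry the glutamate-leucine-arginine motif before their first cysteines, bind CXCR2 (and CXCL8 also CXCR1), and recruit neutrophils. CCL20 binds CCR6 on lymphocytes and dendritic cells, and CXCL16 is a transmembrane chemokine that can be shed and binds CXCR6 on T cells. CSF1 is the growth factor of macrophages, LIF and IL11 are cytokines of the IL6 family that signal through the shared receptor chain gp130, and IL18 is made as a precursor that caspase-1 matures. Transcription of the neutrophil chemokines and of CCL20 is known to depend on NF-kB, in part together with AP-1, and their mRNAs are short-lived.

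Start-site sequence was at hand for 6 of the 10 genes and is shown for all 6. It was not at hand for CXCL16, CSF1, LIF and IL18. Of the 6, 5 were called higher with HJJ_3_5 in the test given further on and IL11 was not, beside 9.17% of all tested genes called higher. Which genes had a sequence at hand sets this count in part. Each line gives the 150 bases before the RefSeq start site (GRCh38.p14), read 5′ to 3′ on the strand of the gene. For CXCL2, CXCL3, CXCL8 and CCL20 that start site lies inside the GENCODE 29 gene span given further on, so these windows overlap it. Capitals mark the NF-kB-type letters GGAATTTCC in CXCL1, CXCL2, CXCL3 and CXCL8, a looser NF-kB form (GGGAA, any 3 bases, CC) in CCL20, and the AP-1 letters TGANTCA in CXCL8 and IL11.
CXCL1, chr4:73869243-73869392, plus strand: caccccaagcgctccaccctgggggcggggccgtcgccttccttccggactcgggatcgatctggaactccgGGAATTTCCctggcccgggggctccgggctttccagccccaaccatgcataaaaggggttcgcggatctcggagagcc
CXCL2, chr4:74099196-74099345, minus strand: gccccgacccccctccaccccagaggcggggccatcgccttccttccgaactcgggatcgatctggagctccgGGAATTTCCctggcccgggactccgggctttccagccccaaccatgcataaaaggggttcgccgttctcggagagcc
CXCL3, chr4:74038690-74038839, minus strand: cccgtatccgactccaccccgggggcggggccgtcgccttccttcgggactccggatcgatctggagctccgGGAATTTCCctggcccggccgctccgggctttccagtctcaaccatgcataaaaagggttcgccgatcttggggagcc
CXCL8, chr4:73740419-73740568, plus strand: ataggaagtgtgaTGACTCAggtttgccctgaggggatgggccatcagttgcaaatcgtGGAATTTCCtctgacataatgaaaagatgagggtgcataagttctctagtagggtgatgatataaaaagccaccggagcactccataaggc
CCL20, chr2:227813692-227813841, plus strand: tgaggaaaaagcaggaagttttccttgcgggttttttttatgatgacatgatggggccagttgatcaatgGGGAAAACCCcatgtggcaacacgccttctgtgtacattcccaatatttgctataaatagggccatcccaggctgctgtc
IL11, chr19:55370464-55370613, minus strand: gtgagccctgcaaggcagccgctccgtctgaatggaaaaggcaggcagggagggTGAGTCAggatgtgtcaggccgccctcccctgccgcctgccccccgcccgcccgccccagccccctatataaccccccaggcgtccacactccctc

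GGAATTTCC began 78 bases before the start site in CXCL1 and CXCL3, 77 bases before it in CXCL2, and 91 bases before it in CXCL8. Searched on both strands of windows from 250 bases before to 50 bases after the start, these letters were found in 4 of the 6 genes and in 0.461% of 35114 promoters of the same length. The looser form, which overlaps the first motif in CXCL1, CXCL2 and CXCL3, was found in 4 of the 6 and in 6.9% of all promoters, and in CCL20 it began 80 bases before the start. TGANTCA was found in CXCL8 (137 bases before the start) and IL11 (96 bases before it), and in 7.709% of all promoters. The letters searched were settled after these promoters had been seen, and 3 of the 4 matches of GGAATTTCC are in paralogs, so the contrast with all promoters is a description. A match is a match of letters and does not show that a factor binds there. The windows of CXCL1, CXCL2 and CXCL3 were 72.1% to 82.5% identical to each other, and 42.6% to 44.9% identical to that of CXCL8.

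HJJ_3_5 raised 7 of the 10 mRNAs and lowered 0 (edgeR quasi-likelihood test, p below 0.05 after Benjamini-Hochberg adjustment over 14180 tested genes). The 7 were CXCL1, CXCL2, CXCL3, CXCL8, CCL20, CSF1 and LIF, and in each of them both HJJ_3_5 libraries lay above both DMSO libraries. Over all tested genes 9.17% were called higher and 8.27% lower, and 35.1% had both HJJ_3_5 libraries above both DMSO libraries. The median log2 fold change of the 10 genes was 1.07, against 0.0013 over all tested genes. The 10 genes were chosen with earlier results of these data known, and CXCL1, CXCL2 and CXCL3 are paralogs. The contrast with all genes is therefore a description. CXCL16, IL18 and IL11 did not pass the test, and their groups overlapped. None of the 10 had an unadjusted p below 0.05 in the lower direction, and DESeq2 and limma-voom also called 7 higher and 0 lower. The calls rest on all 4 libraries: edgeR called 0 of the 10 genes without DMSO 1, without DMSO 2 or without HJJ_3_5 1, and 4 without HJJ_3_5 2. In each of these fits, which leave 1 library in a group, the same 7 log2 fold changes were positive.

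**Figure D1:**
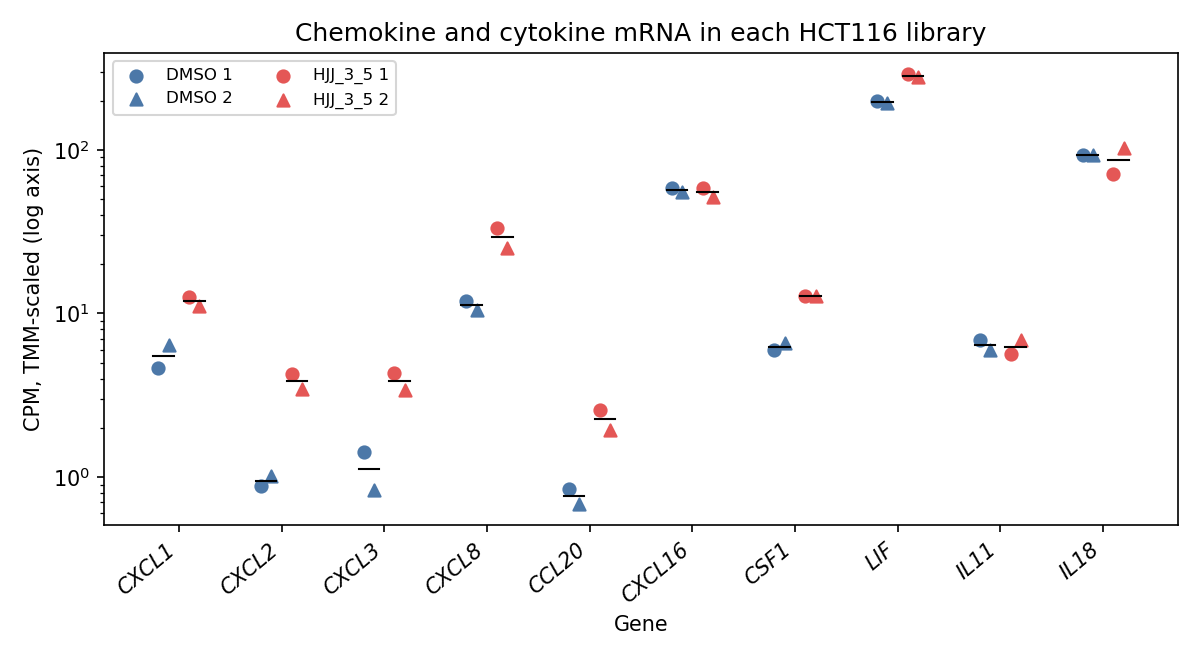
Level of each gene in each library, as CPM scaled by TMM on a log axis. Points are libraries (circle for replicate 1, triangle for replicate 2) and black lines are group means of 2 libraries. Both red HJJ_3_5 points lie above both blue DMSO points for CXCL1, CXCL2, CXCL3, CXCL8, CCL20, CSF1 and LIF, and they overlap for CXCL16, IL11 and IL18.

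The libraries held 29211120 to 36455176 counts. Levels are given as CPM, counts divided by library size with TMM scaling, and 1 count was worth between 0.0255 and 0.0362 CPM. Values after ± are SDs of 2 libraries for levels and standard errors for log2 fold changes. The epithelial markers EPCAM, CDH1, KRT8, KRT18, KRT19 and CLDN4 were all tested. Of these 6, 1 was called higher (KRT18) and 0 lower, beside 9.17% and 8.27% of all tested genes. Both HJJ_3_5 libraries lay above both DMSO libraries in 2 of them and below in 2. KRT18 shares 525 exon bases with KRT8 on the other strand. The summed level of the 6 was 4348 to 5226 CPM with DMSO and 4944 to 5918 CPM with HJJ_3_5, and CLDN4 alone was at 474 CPM in DMSO 1 and 25.8 CPM in DMSO 2. Of 7 leukocyte markers, PTPRC, which encodes CD45, and MS4A1 had no count in any library, and CD3E had 2 counts in HJJ_3_5 2 alone. Their summed level, most of it CD68, was 38.1 to 44.5 CPM with DMSO and 22.6 to 30.0 CPM with HJJ_3_5. LYZ, another of them, rose from 4 and 5 counts to 33 and 33 (adjusted p = 0.0321). Of 5 fibroblast markers DCN and LUM had no count in any library, and 1 was called lower (COL1A1) and 0 higher. The summed level of the 5, nearly all of it COL1A1, was 65.0 to 67.2 CPM with DMSO and 35.2 to 40.6 CPM with HJJ_3_5. PDGFRB, the only other fibroblast marker tested, went from 0.382 to 0.765 CPM and was not called. Of 3 endothelial markers 1 was tested and 0 were called, with a summed level of 0.796 to 1.19 CPM with DMSO and 1.78 to 1.92 CPM with HJJ_3_5. The part of other cells in the chemokine levels was not tested beyond these values. In RNA from whole cultures, fewer cells that make an mRNA and less of it per cell cannot be told apart.

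Among the neutrophil chemokines, CXCL2 (ENSG00000081041, GRCh38 chromosome 4, 74097035 to 74099293) had the largest fold change of the 10 genes. It had counts of 26 and 28 with DMSO, and 133 and 135 with HJJ_3_5, which is 0.882 and 1.01 CPM against 4.30 and 3.45 CPM. The lowest HJJ_3_5 library was 3.40-fold above the highest DMSO library. The group means were 0.948 ± 0.093 and 3.87 ± 0.60 CPM, and the log2 fold change was 2.03 ± 0.26 (95% interval 1.34 to 2.71, adjusted p = 0.0273). Among all tested genes 99.2% had a log2 fold change no larger than this.

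CXCL3 (ENSG00000163734, chromosome 4, 74036589 to 74038807), a close paralog of CXCL2, overlapped it in CPM with DMSO. Counts were 42 and 23 with DMSO, and 134 and 134 with HJJ_3_5, or 1.43 and 0.833 CPM against 4.33 and 3.42 CPM. Both HJJ_3_5 libraries were above both DMSO libraries, but the DMSO libraries themselves differed by 0.78 on the log2 scale, the widest gap between replicates among the 10 genes. Its log2 fold change was 1.77 ± 0.35 (95% interval 0.86 to 2.68, adjusted p = 0.0395), and it lay between 1.44 without DMSO 2 and 2.21 without DMSO 1.

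CXCL1 (ENSG00000163739, chromosome 4, 73869393 to 73871242), the best expressed of these 3 paralogs, had counts of 137 and 177 with DMSO, and 392 and 437 with HJJ_3_5. Its levels were 4.65 and 6.41 CPM with DMSO and 12.7 and 11.2 CPM with HJJ_3_5. The groups did not overlap, with the lowest HJJ_3_5 library 1.74-fold above the highest DMSO library. On the log2 scale the change was 1.11 ± 0.22 (95% interval 0.52 to 1.69, adjusted p = 0.0406). This was the highest adjusted p among the 7 called genes.

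CXCL8 (ENSG00000169429, chromosome 4, 73740506 to 73743716), which encodes interleukin 8, was the most abundant of the neutrophil chemokines. It had counts of 353 and 290 with DMSO, and 1032 and 978 with HJJ_3_5, or 12.0 and 10.5 CPM against 33.3 and 24.98 CPM. The lower of the HJJ_3_5 libraries was 2.09-fold above the higher DMSO library, and the HJJ_3_5 libraries differed by 0.42 on the log2 scale. The fitted log2 fold change was 1.37 ± 0.20 (95% interval 0.86 to 1.89, adjusted p = 0.0293).

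These 4 genes lie within 358.8 kb of chromosome 4. Their summed level was 18.9 and 18.8 CPM with DMSO and 54.6 and 43.0 CPM with HJJ_3_5. The intervals of the 4 fold changes overlap each other, and differences between the genes in their response were not tested. Because CXCL1, CXCL2 and CXCL3 are copies of one ancestral gene, their transcripts were compared. In the longest coding transcripts of GENCODE 29, 66.6% to 80.1% of alignment positions were identical between pairs of the 3, and 5.73% of the 50-base words of CXCL1, 9.24% of those of CXCL2 and 5.26% of those of CXCL3 also occurred in another gene. Reads from those stretches could be split or dropped in counting, so the balance among the 3 genes is uncertain to that extent. For CXCL8, CCL20, CSF1 and LIF this share was 0.

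**Figure D2:**
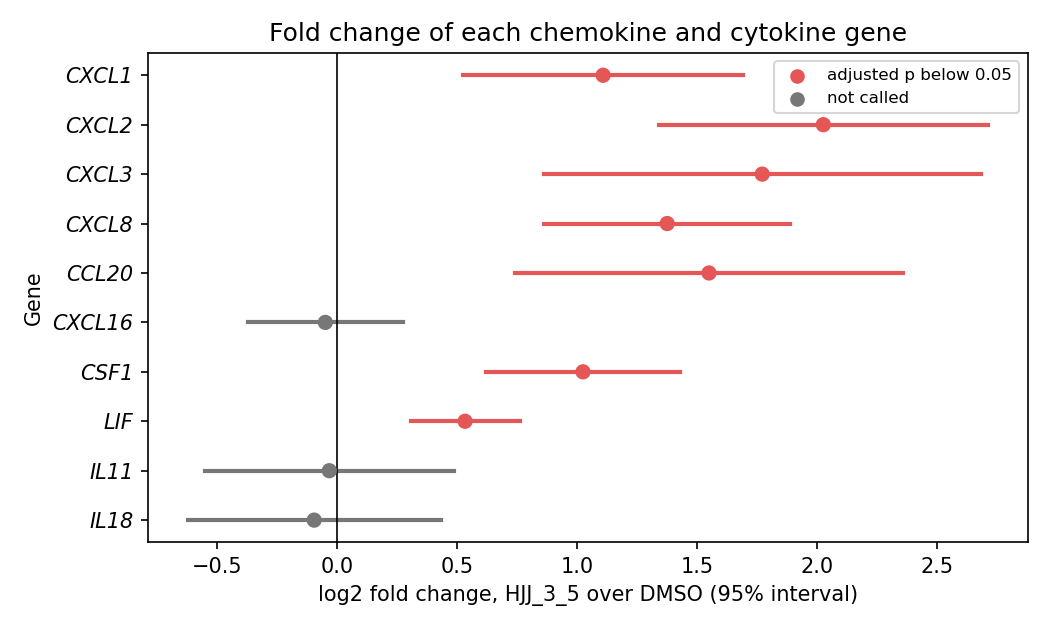
Log2 fold change of each gene, HJJ_3_5 over DMSO, from edgeR. Points are estimates, bars are 95% intervals, and red marks an adjusted p below 0.05. The 7 red intervals lie above 0, with CXCL2 farthest right at 2.03, and the intervals of CXCL16, IL11 and IL18 include 0.

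CCL20 (ENSG00000115009, chromosome 2, 227805739 to 227817564), the chemokine of CCR6, was the lowest of the 10 genes in CPM. Counts were 25 and 19 with DMSO, and 80 and 76 with HJJ_3_5, or 0.848 and 0.688 CPM against 2.58 and 1.94 CPM. The groups did not overlap, and the lowest HJJ_3_5 library was 2.29-fold above the highest DMSO library. The log2 fold change was 1.55 ± 0.31 (95% interval 0.74 to 2.36, adjusted p = 0.0399). Counts of 19 to 80 set the width of this interval in part, and 11.0% of tested genes had a mean CPM as low as this or lower. Its transcript, like that of CXCL8, is poor in GC (35.5% and 33.4%).

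CXCL16 (ENSG00000161921, chromosome 17, 4733526 to 4739922), the membrane-bound chemokine, did not pass the test. It had counts of 1734 and 1523 with DMSO, and 1812 and 2018 with HJJ_3_5. Its levels were 58.8 and 55.1 CPM with DMSO and 58.5 and 51.5 CPM with HJJ_3_5, and the groups overlapped. Its log2 fold change was -0.050 ± 0.12, with a 95% interval of -0.37 to 0.27 (adjusted p = 0.791), and it was 0.14 with library totals. Once a trend in GC and length was removed it was -0.26 (adjusted p = 0.0786), the 1 case of an unadjusted p below 0.05 in the lower direction among the 10 genes in that fit. In linear terms the interval runs from 0.772-fold to 1.21-fold, so a rise of the size seen in the neutrophil chemokines lies outside it. CXCL16 shares 85 exon bases with MED11 on the other strand, and the strand setting of the counting is not given, so some of its reads may belong to that gene.

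CSF1 (ENSG00000184371, chromosome 1, 109910242 to 109930992), the macrophage growth factor, was 2.03-fold higher with HJJ_3_5. Counts were 176 and 182 with DMSO, and 396 and 499 with HJJ_3_5, or 5.97 and 6.59 CPM against 12.8 and 12.7 CPM. The HJJ_3_5 libraries differed by 0.0057 on the log2 scale and both were at least 1.93-fold above either DMSO library. On the log2 scale the change was 1.02 ± 0.15 (95% interval 0.62 to 1.43, adjusted p = 0.0294).

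LIF (ENSG00000128342, chromosome 22, 30240447 to 30246851), a cytokine of the IL6 family, had the most counts of the 10 genes and the smallest change among those called. It had counts of 5856 and 5377 with DMSO, and 8940 and 10963 with HJJ_3_5, or 199 and 195 CPM against 289 and 280.0 CPM. Replicates lay within 0.05 of each other on the log2 scale and the groups did not overlap. The fitted log2 fold change was 0.53 ± 0.086 (1.45-fold, 95% interval 1.24 to 1.69, adjusted p = 0.0317). It was 0.38 and still called in a fit that removed a trend in GC content and length (adjusted p = 0.0282). LIF shares exon bases with antisense genes that are not in the table, and reads from these could have been counted with it. LIF alone made up 51.8% and 51.9% of the summed CPM of the 10 genes with DMSO and 58.5% and 56.1% with HJJ_3_5. The sum itself went from 383.5 and 374.7 CPM to 494.0 and 499.3 CPM.

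IL11 (ENSG00000095752, chromosome 19, 55364389 to 55370463), the other gp130 cytokine, did not pass the test. Counts were 203 and 165 with DMSO, and 176 and 269 with HJJ_3_5, or 6.89 and 5.97 CPM against 5.69 and 6.87 CPM. The HJJ_3_5 libraries lay on both sides of DMSO 2. The log2 fold change was -0.034 ± 0.20 (95% interval -0.55 to 0.49, adjusted p = 0.914), which turned to 0.15 with library totals. CLCF1, which encodes another ligand of gp130 receptors, went from 6.18 ± 1.62 to 13.4 ± 0.8 CPM and was called higher (1.11 ± 0.23, adjusted p = 0.0424).

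IL18 (ENSG00000150782, chromosome 11, 112143251 to 112164117), the only one of the 10 that needs an inflammasome for its release, did not pass the test either. It had counts of 2751 and 2567 with DMSO, and 2196 and 4040 with HJJ_3_5. The DMSO libraries were alike at 93.3 and 92.9 CPM, whereas the HJJ_3_5 libraries were at 71.0 and 103.2 CPM, below and above both of them. Its log2 fold change was -0.097 ± 0.20 (95% interval -0.62 to 0.43, adjusted p = 0.751). It was -0.40 without HJJ_3_5 2 and 0.15 without HJJ_3_5 1, 0.091 with library totals and 0.17 once a GC and length trend was removed, and no setting called it.

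Levels can be compared between genes per length, as CPM per kilobase of the longest coding transcript. With DMSO the order by this measure was IL18 (81.2 ± 0.3), LIF (49.6 ± 0.7), CXCL16 (25.6 ± 1.2), CXCL8 (6.59 ± 0.61), CXCL1 (5.04 ± 1.13), IL11 (2.82 ± 0.28), CSF1 (1.49 ± 0.10), CXCL3 (1.05 ± 0.39), CCL20 (0.915 ± 0.135) and CXCL2 (0.778 ± 0.076). The ranges of the last 3 overlapped and those of the other neighbours did not. With HJJ_3_5 IL18 (75.9 ± 19.9) and LIF (71.7 ± 1.6) overlapped, followed by CXCL16 (24.8 ± 2.2), CXCL8 (17.1 ± 3.5) and CXCL1 (10.9 ± 1.0), which did not overlap their neighbours. CXCL3 (3.61 ± 0.60) overlapped CXCL2 (3.18 ± 0.49), CXCL2 overlapped CSF1 (3.03 ± 0.0084), and IL11 (2.75 ± 0.37) overlapped CCL20 (2.70 ± 0.54). CCL20 also overlapped CSF1 and CXCL2, and IL11 also overlapped CXCL2, so the order among these genes is not settled.

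Among receptors for these ligands, those of the chemokines had few counts, while LIFR, IL6ST and IL11RA were well above them. Of 11 receptor genes 6 were tested, 0 were called higher and 1 lower, beside 9.17% and 8.27% of all tested genes. Their median log2 fold change was -0.44 (0.0013 over all tested genes). CXCR1 and CXCR2, the receptors of the neutrophil chemokines, had at most 16 and 3 counts in a library, and CCR6 and CXCR6 at most 12 and 14. IL11RA, the specific receptor of IL11, went from 23.0 ± 0.3 to 12.7 ± 1.6 CPM and was called lower (-0.86 ± 0.15, adjusted p = 0.0345), and it shares exon bases with GALT on its own strand. The LIF receptor LIFR (79.6 ± 9.9 to 42.3 ± 12.5 CPM, adjusted p = 0.0635) and IL6ST, which encodes gp130 (72.0 ± 14.7 to 36.4 ± 12.9 CPM, adjusted p = 0.0822), did not pass the test. DESeq2 called both lower (adjusted p = 0.0046 and 0.0085), as did edgeR without HJJ_3_5 2 (0.0335 and 0.0356). With the GC and length trend taken out, LIFR went from -0.91 to -0.40 and IL6ST from -0.98 to -0.51, neither called. edgeR with a block on replicate number called both lower (adjusted p = 0.0198 for LIFR and 0.0173 for IL6ST). It also called both with the block added and the trend removed (0.0306 and 0.0191).

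Genes acting downstream of gp130, the receptor chain shared by LIF and IL11, were also counted. edgeR called 4 of the 10 lower and 0 higher (DESeq2 5 and 0), beside 8.27% lower and 9.17% higher of all tested genes. Their median was -0.55. The kinase gene PIM1 fell by 1.06 ± 0.13 on the log2 scale (adjusted p = 0.0273), the transcription factor gene STAT3 by 0.64 ± 0.089 (0.0290), the feedback inhibitor SOCS3 by 0.70 ± 0.13 (0.0366) and the kinase gene JAK1 by 1.27 ± 0.27 (0.0441), all with both HJJ_3_5 libraries below both DMSO libraries. PTPN11 (-0.40) was not called, but was without HJJ_3_5 2 (-0.66, adjusted p = 0.0417), and it was 0.018 without the GC and length trend. Of all tested genes 33.9% had both HJJ_3_5 libraries below both DMSO libraries.

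Processing and release genes gave 0 higher and 1 lower of 7 tested, beside 9.17% and 8.27% of all tested genes, with a median of -0.50. IL18BP, which encodes the soluble antagonist of IL18, went from 22.9 ± 1.6 to 10.0 ± 0.2 CPM (-1.19 ± 0.13, adjusted p = 0.0273), and it shares 675 exon bases with NUMA1 on the other strand. CASP1, which encodes an enzyme that matures IL18, had at most 5 counts in a library. CASP4, another caspase gene of this list, went from 10.3 ± 5.2 to 3.72 ± 1.24 CPM and was not called (adjusted p = 0.0851). The sheddase ADAM10, known to cut CXCL16, was at 145 ± 21.3 CPM with DMSO and 83.8 ± 26.3 CPM with HJJ_3_5 (adjusted p = 0.0901). ADAM10 was called lower by DESeq2 (adjusted p = 0.0176) and without HJJ_3_5 2 (0.0337), while its log2 fold change went from -0.79 to -0.15 with the GC and length trend taken out. DESeq2 called 4 genes of this list lower. The pore-forming GSDMD was at 69.0 ± 16.9 and 81.3 ± 9.5 CPM (adjusted p = 0.441).

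**Figure D3:**
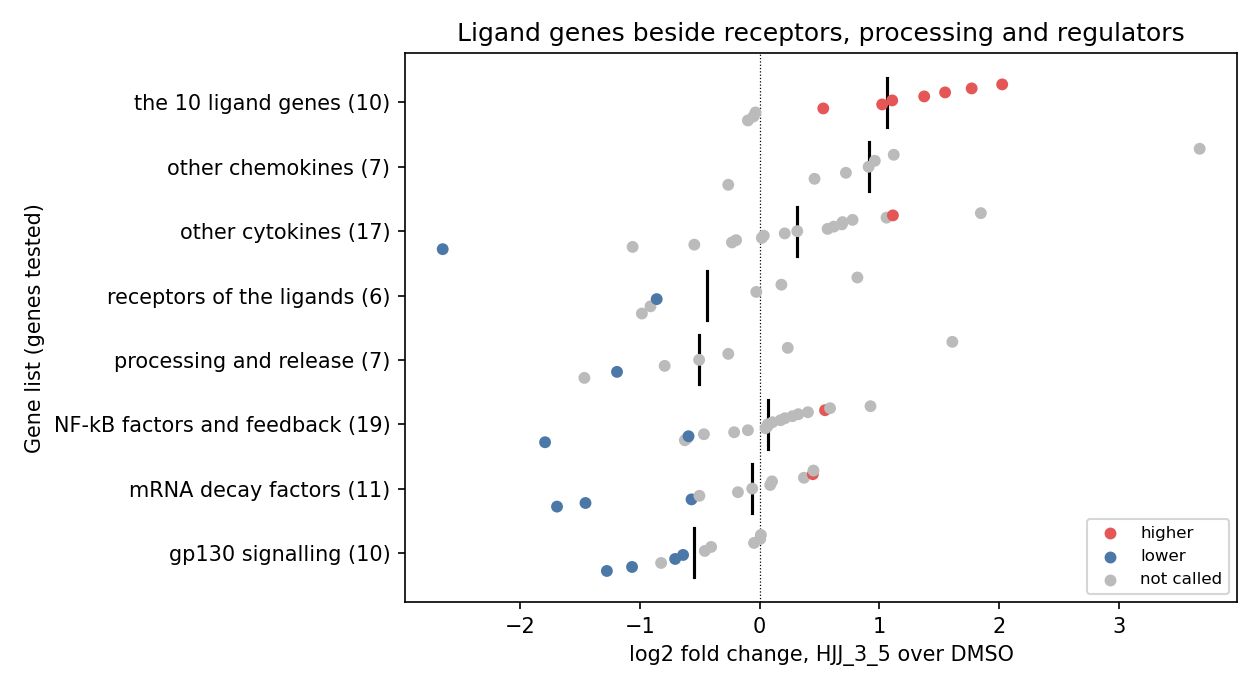
Log2 fold changes of the tested genes of each list, HJJ_3_5 over DMSO. Points are genes, black bars are list medians, and colour gives the edgeR call at an adjusted p below 0.05. The 10 ligand genes have 7 called higher and a median of 1.07, whereas the gp130 signalling list has 4 called lower and a median of -0.55. Of all tested genes 9.17% were called higher and 8.27% lower.

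Other chemokines were scarce. Of 30 such genes 14 had no count in any library and 7 were tested. edgeR called 0 of these. An unadjusted p below 0.05 was found for 4 of them, and for 5578 of all 14180 tested genes. limma-voom called 0 and DESeq2 1 higher, and with library totals or with the GC and length trend taken out edgeR called 2. Their median log2 fold change was 0.91. Both HJJ_3_5 libraries lay above both DMSO libraries in 6 of the 7, and in 35.1% of all tested genes. CCL5 was at 7.95 ± 0.74 CPM with DMSO and 13.1 ± 6.3 CPM with HJJ_3_5 (adjusted p = 0.217), and CXCL10, an interferon-inducible chemokine, at 1.62 ± 0.37 and 3.04 ± 0.69 CPM (adjusted p = 0.1). CCL5 ranged from 0.13 without HJJ_3_5 1 to 1.14 without HJJ_3_5 2, where it was called (adjusted p = 0.0353), and CXCL10 was called without the GC and length trend (1.11, 0.0429). Among 17 other cytokines tested, 1 was called higher (CLCF1, above) and 1 lower, beside 9.17% and 8.27% of all tested genes. The lower one was IL16 (-2.64 ± 0.59, adjusted p = 0.0477), which shares 4351 exon bases with STARD5 on the other strand and had 6 to 52 counts. IL16 was not called by limma-voom (-2.53, adjusted p = 0.0564) or without the GC and length trend (-2.37, adjusted p = 0.0538). MIF, the most abundant, was at 470 ± 32.2 and 476 ± 46.4 CPM (adjusted p = 0.915), and KITLG at 150 ± 26.7 and 71.9 ± 31.3 CPM (adjusted p = 0.0898). KITLG was called lower by DESeq2 (adjusted p = 0.008) and without HJJ_3_5 2 (-1.59, 0.0335), and was -0.67 without HJJ_3_5 1.

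Of 19 NF-kB factors and feedback genes, 1 was called higher and 2 lower, beside 9.17% and 8.27% of all tested genes, with a median of 0.070 that turned to -0.0011 without the GC and length trend. NFKB1, which encodes p105 and p50, rose by 0.55 ± 0.11 (adjusted p = 0.0417), REL fell by 1.79 ± 0.25 (0.0291) and BCL3 by 0.59 ± 0.11 (0.0366), while NFKB2 (-0.21) and CEBPB (0.40) were not called. REL shares 5702 exon bases on its own strand with AC010733.2, whose reads could have been counted with REL. Without the GC and length trend REL was -1.15 and BCL3 -0.91, both called, NFKB2 was called lower (-0.46, adjusted p = 0.0212) and CEBPB was 0.090. CEBPB was called higher with library totals (0.59, adjusted p = 0.0304), where NFKB2 was -0.027. The fall of BCL3 was not called with library totals (-0.41, adjusted p = 0.0582). Of 11 mRNA decay factors, 1 was called higher and 3 lower, with a median of -0.061 that turned to 0.13 with library totals and to 0.21 without the GC and length trend. ZFP36, which binds AU-rich elements of chemokine mRNAs, went from 156 ± 25 to 48.4 ± 8.5 CPM (-1.69 ± 0.19, adjusted p = 0.0273), RC3H1, which encodes roquin-1, fell by 1.45 ± 0.16 (0.0273) and ZFP36L1 by 0.57 ± 0.088 (0.0302). ZFP36L2 went the other way, from 39.0 ± 0.3 to 53.2 ± 3.0 CPM, and was not called (0.45 ± 0.11, adjusted p = 0.0583). KHSRP rose by 0.44 ± 0.093 (0.0427), but was not called without that trend (0.21, adjusted p = 0.0761), and HNRNPD (-0.061) and ELAVL1 (0.10) were not called. The change of RC3H1 was -0.79 without that trend and was still called, and ELAVL1 was 0.42 and not called. With the trend removed and a block on replicate number, edgeR called KHSRP (0.21, adjusted p = 0.0451) and ELAVL1 (0.42, 0.0229) higher. Like the calls among the 10 ligand genes, those named among the other cytokines, receptors, processing, NF-kB, mRNA decay and gp130 genes were lost without DMSO 1, without DMSO 2 and without HJJ_3_5 1. Without HJJ_3_5 2, CLCF1, IL16, SOCS3, NFKB1 and BCL3 lost theirs. Whether any of these changes bears on the chemokine mRNAs was not tested.

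Over all genes, transcripts richer in GC had higher fold changes (Spearman's rho 0.344 across 14164 genes, which share the 4 libraries). Differences between replicates, library 2 minus library 1, also followed GC (rho -0.363 with DMSO and -0.550 with HJJ_3_5). The relation to GC is thus not particular to the contrast between the groups. The transcripts of the 10 genes ran from 33.4% GC in CXCL8 to 59.5% in CSF1. With a trend in GC and length removed from each library, the log2 fold changes were 1.30 for CXCL1, 2.19 for CXCL2, 1.99 for CXCL3, 1.35 for CXCL8, 1.73 for CCL20, 0.85 for CSF1 and 0.38 for LIF. All 7 were called in that fit.

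**Figure D4:**
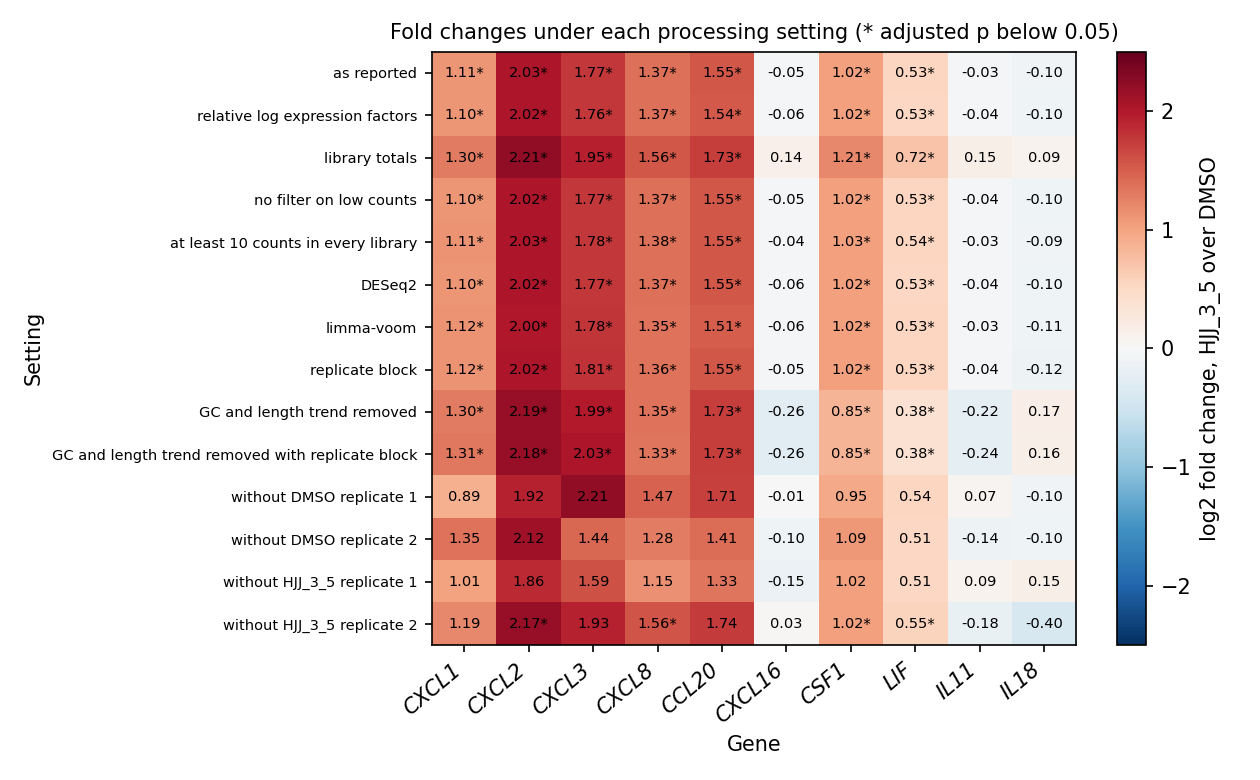
Log2 fold change of each gene (columns) under each processing setting (rows), with colour and printed value giving the same quantity and an asterisk for an adjusted p below 0.05. The 7 called genes keep positive values in all 14 rows, between 0.38 and 2.21, whereas CXCL16, IL11 and IL18 change sign between rows.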

How the data were processed

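Per the labels' protocols, total RNA of HCT116 cells went into mRNA sequencing libraries. The authors deposited a table of raw counts of reads, with genes in rows and the 4 samples in columns, without normalization. No source used here gives the aligner, counter, annotation or strand setting. GRCm38 and mm10, both mouse builds, stand in the submitters' processing notes, while the identifiers are human, so it is not known which build was counted against; gene positions are those of GENCODE 29 (GRCh38), and promoters those of RefSeq (GRCh38.p14). The 10 genes and all lists were chosen with earlier results of these data known.

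Of 20263 genes, filterByExpr (minimum count 10, minimum total 15) left 14180. Libraries were scaled by TMM and compared with the quasi-likelihood test of edgeR 4.0.16 (R 4.3.3, two-sided, group only, 2 residual degrees of freedom) with Benjamini-Hochberg adjustment over all tested genes, and a call is an adjusted p below 0.05. Standard errors are the log2 fold change divided by the square root of F. Total counts per library were 31120459 and 29769568 with DMSO and 29211120 and 36455176 with HJJ_3_5, and within each pair of replicates the counts differed beyond sampling noise. The methods were tested on simulated counts without a GC trend or a replicate effect, so that test does not cover such features of these libraries. Of the lists outside the 10 genes, up to 4 called genes with the smallest p and up to 2 uncalled genes with the highest mean CPM were named; other genes were named after their values were seen, and 1 gene that the rule names is not reported here. Alternatives were relative log expression factors, library totals, 2 other filters, DESeq2 1.42.0, limma-voom (limma 3.58.1), a replicate block, a stricter threshold, removal of a GC and length trend (natural splines with 4 degrees of freedom, fitted where mean log2 CPM reached 3), and leaving out each library. For named genes outside the 10, they were added after seeing the data. Identity was computed with Biopython 1.88 and shared words with 50-base words.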

Additional observations from a re-analysis of the deposited data

How the results depend on the processing

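The 10 log2 fold changes were recomputed under 13 alternatives, and the 7 called genes stayed positive in all of them. CXCL2, CXCL8, CSF1 and LIF were called in 10 of 13 and CXCL1, CXCL3 and CCL20 in 9 of 13; calls were lost only when a library was left out. At an adjusted p below 0.01 edgeR called 0 of the 10 and 0 genes of all. Without adjustment p was below 0.05 for 7 of the 10 and for 5578 of the 14180 tested genes. Over all genes, calls without a library ranged from 0 to 976 higher and 0 to 1716 lower, and at 0.01 both were 0. Higher and lower calls were 2614 and 821 with library totals, which moved all fold changes by 0.19 (76.1% higher against 52.6%), 1675 and 2101 with DESeq2, 2077 and 2540 with the replicate block, and 2553 and 2404 with the trend removed and the block. The labels do not say whether libraries with the same replicate number belong together. Differences between replicates correlated at r = 0.281 across genes. With the block the 10 genes again had 7 higher calls, while lower calls went from 1 to 3 among receptors and from 1 to 4 among processing genes. With the trend also removed, lower calls went from 2 to 5 among NF-kB genes, and higher calls from 1 to 5 among mRNA decay genes.

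Signs of genes that were not called turned: with library totals CXCL16 (0.14), IL11 (0.15), IL18 (0.091) and HNRNPD (0.13); with the GC and length trend removed IL18 (0.17), GSDMD (-0.060), HNRNPD (0.21), MIF (-0.21) and PTPN11 (0.018), and with the block added IL18 (0.16), GSDMD (-0.046), HNRNPD (0.19), MIF (-0.21) and PTPN11 (0.018). Without a library, CXCL16 ranged from -0.15 to 0.035, IL11 from -0.18 to 0.093, IL18 from -0.40 to 0.15, HNRNPD from -0.16 to 0.039 and MIF from -0.085 to 0.11. The cause of these changes was not tested. Counts of 19 to 42 with DMSO limit the precision for CXCL2, CXCL3 and CCL20.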

Other observations

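Apart from the ligand genes, of 65 tested genes whose promoter window held GGAATTTCC, 6 were called higher and 9 lower with HJJ_3_5, with a median log2 fold change of -0.14, against 996 higher and 945 lower of 11142 genes without them (median -0.008). CXCL1, CXCL2, CXCL3 and CXCL8, which hold the letters and were all called higher, are left out of these counts. The letters were settled with the chemokine promoters in view, so the counts are a description, and no difference was tested.

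CLDN4, an epithelial marker, had 13958 counts in DMSO 1 and 714 in DMSO 2, against 3085 and 1239 with HJJ_3_5. CCL25, a chemokine best known from the small intestine, had counts of 3 and 0 with DMSO, and 28 and 21 with HJJ_3_5, and was not called (adjusted p = 0.0583).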
